A study of Homo sapiens with 6 samples.

Results

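The genes described here encode 10 enzymes that make or recycle purine nucleotides, among 16907 genes with a row in the count files. They comprise PPAT, GART, PFAS, PAICS, ADSL and ATIC of de novo synthesis, IMPDH2 and GMPS of the GMP branch, and HPRT1 and APRT of salvage. The members were found by their symbols. They were chosen by enzyme function with their siOGT against siControl differences in these libraries already known, so those differences, their intervals and the calls made on them are given as a description and support nothing. All 10 members passed the filter on low counts, which kept 14853 genes, and the lowest count of a member in a library was 557.

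Purine rings are built on phosphoribosyl pyrophosphate (PRPP) through a chain of reactions that ends at inosine monophosphate (IMP). IMP is then turned into AMP or GMP, and several steps of the chain draw on glutamine, glycine, aspartate and formyl groups carried by folate. Salvage enzymes instead attach a ready-made base to PRPP, and dividing cells, which must copy their DNA and make ribosomal RNA, use both routes.

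RNA was sequenced from LX-2 cells, a human line of hepatic stellate cells, the liver cells that become collagen-producing myofibroblasts. The siControl and siOGT groups each held 3 libraries, numbered as replicates 1 to 3, and in both groups cells had been transfected with a small interfering RNA (siRNA) at 20 nM and harvested after 72 h. The siOGT group received a pool of siRNAs against OGT, the enzyme that places O-linked N-acetylglucosamine on proteins. The siControl group received a negative control siRNA from another manufacturer, so effects of the reagent and of OGT loss cannot be told apart, and a single cell line was used. The question put to these genes was how the level of each enzyme mRNA in OGT-silenced cells compared with that in control cells of the same replicate.

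Each library held between 25996770 and 27966801 expected counts, and levels are given in CPM, counts scaled to the same total in every library, with TMM factors. OGT itself averaged 145 ± 28.9 CPM over the siControl libraries against 32.0 ± 6.94 CPM with siOGT (SD over 3 libraries), with a log2 fold change of -2.18 and an edgeR adjusted p-value of 2.712e-12. Of 10 stellate cell markers, 7 reached a mean of 1 CPM, and 3, among them DES and LRAT, did not. Their summed level was 6763 to 8147 CPM in siControl and 5833 to 7059 CPM in siOGT. The highest of these markers were VIM, at means of 3200 and 3075 CPM, and COL1A1, at 2658 and 2023 CPM. COL1A1, COL1A2, COL3A1 and PDGFRB were called lower in siOGT. VIM, TIMP1 and ACTA2 were not called, and ACTA2 was at 6.55 ± 2.72 and 7.58 ± 1.32 CPM. None of the 3 hepatocyte markers with a row in the files, ALB, APOA1 and HNF4A, reached 1 CPM, and their sum was at most 0.296 CPM in any library. Of the 3 endothelial markers 2 reached 1 CPM, summing to 3.18 to 7.86 CPM in siControl and 3.00 to 5.72 CPM in siOGT. Of the 3 cholangiocyte markers 1 reached it, summing to 5.50 to 8.21 and 4.70 to 6.68 CPM. The endothelial marker VWF was called lower (2.60 ± 1.37 and 1.35 ± 0.670 CPM, edgeR adjusted p = 0.0108), and no other marker of these types was called. Of the 3 leukocyte markers 2 reached 1 CPM and PTPRC was below it, and their sum was 130.7 to 162 CPM in siControl and 175.7 to 207.8 CPM in siOGT. That sum was mostly CD68, which rose from 137 ± 15.7 to 188 ± 17.5 CPM (edgeR adjusted p = 0.000947), whereas CD14 was at 6.96 ± 0.978 and 5.84 ± 1.25 CPM and, like PTPRC, was not called. The part of these marker levels in the results below was not tested. In bulk RNA, fewer cells of a type and less RNA per cell cannot be told apart.

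The upstream sequences of 4 members are shown because PPAT and PAICS, 2 enzymes of the same chain, lie head to head on chromosome 4 and differed in their values, because HPRT1 had the lowest log2 fold change of the members and because ATIC carried the E-box most often. All are the 250 bases before the transcription start in RefSeq (GRCh38.p14), written in the direction of transcription, at chr4:56435616-56435865 (minus strand) for PPAT, chr4:56436010-56436259 (plus strand) for PAICS, chrX:134459915-134460164 (plus strand) for HPRT1 and chr2:215311809-215312058 (plus strand) for ATIC. Capitals mark the E-box CACGTG, the GC box GGGCGG on either strand and the NRF1 core GCGCNTGCG, and none of the marked matches overlapped another.
PPAT: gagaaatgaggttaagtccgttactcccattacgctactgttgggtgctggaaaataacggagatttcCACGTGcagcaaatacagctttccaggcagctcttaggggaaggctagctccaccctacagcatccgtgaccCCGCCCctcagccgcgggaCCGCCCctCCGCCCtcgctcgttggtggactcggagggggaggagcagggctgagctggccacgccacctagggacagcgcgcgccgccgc
PAICS: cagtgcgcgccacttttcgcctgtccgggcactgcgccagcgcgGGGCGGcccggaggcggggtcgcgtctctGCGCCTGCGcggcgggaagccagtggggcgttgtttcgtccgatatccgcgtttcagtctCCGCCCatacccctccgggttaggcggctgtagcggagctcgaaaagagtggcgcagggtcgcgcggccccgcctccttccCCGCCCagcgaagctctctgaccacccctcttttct
HPRT1: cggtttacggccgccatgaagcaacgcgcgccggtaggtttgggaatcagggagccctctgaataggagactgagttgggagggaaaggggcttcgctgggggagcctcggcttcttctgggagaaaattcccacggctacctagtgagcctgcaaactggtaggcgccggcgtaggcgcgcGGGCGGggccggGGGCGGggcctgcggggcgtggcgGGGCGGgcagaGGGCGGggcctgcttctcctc
ATIC: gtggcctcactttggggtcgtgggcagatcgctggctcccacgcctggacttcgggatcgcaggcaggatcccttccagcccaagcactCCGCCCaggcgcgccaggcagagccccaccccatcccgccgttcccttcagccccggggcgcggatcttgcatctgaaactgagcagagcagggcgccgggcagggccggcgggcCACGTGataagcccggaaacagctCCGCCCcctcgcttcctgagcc

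Of the 10 members, 8 had a promoter window of 300 bases in the RefSeq table, reaching from 250 bases before the start to 50 after it, and ADSL and IMPDH2 were not among them. Both strands of each window were searched. All 8 held a GC box, which 45% of 35116 RefSeq promoters held, with 4 in HPRT1, 3 in PPAT, 3 in PAICS and 2 in ATIC. The E-box, the sequence read by MYC with MAX and by related factors, was found in 2 of the 8 windows against 7.26% of all promoters. It began 182 bases before the start of PPAT, and in ATIC it began 46 bases before the start and again at base 30 of the transcript. The NRF1 core was found in APRT and PAICS (7.47% of all promoters), the ETS site CCGGAAG in APRT and GART (10.3%) and the CCAAT box in GART alone (34.6%). No member window held the YY1 site AAGATGGCG (1.75% of all promoters), the cyclic AMP response element TGACGTCA (1.85%) or the C/EBP-ATF site TGATGCAA (0.866%). The guanine and cytosine content was 63.7% in the PPAT window, 69.7% in the PAICS window, 68.7% in HPRT1 and 70.7% in ATIC, against a median of 58.7% over all promoters. Of the other windows, PFAS was below that median at 57%, and APRT, GART and GMPS were at 67.3%, 69.7% and 79.3%.

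The starts of PPAT and of the canonical PAICS transcript were 645 bases apart on opposite strands. RefSeq listed 3 windows for PAICS, and another of its starts lay 137 bases from that of PPAT. The window of that start shared 236 bases with the PPAT window, including the E-box at chr4:56435792-56435797. The counts were given per gene, so which PAICS start was used in LX-2 cells was not measured here.

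Among the members, HPRT1, PAICS and PFAS were called lower in siOGT, none was called higher, and 7 were not called. Calls come from edgeR's quasi-likelihood test, fitted to all genes with the replicate number as a block, with 0.05 as the limit of the adjusted p-value. By this rule 12.7% of the 14853 genes were lower in siOGT and 12.7% were higher. The log2 fold changes of the members, siOGT over siControl, ran from -0.38 (HPRT1) to 0.10 (ADSL) with a median of -0.11, against a median of 0.0068 over all genes. In 3 members, PAICS, HPRT1 and GMPS, all siOGT libraries lay below all siControl libraries, as in 11.8% of the genes tested. The calls depended on the pairing of libraries by replicate, that of PAICS in edgeR only. Without the replicate block edgeR called 0 of the 10 members, with 0.397% of all genes called lower, and DESeq2 called 1, PAICS. DESeq2 with the block called HPRT1 and PAICS, with 8.74% of all genes called lower.

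**Figure D1:**
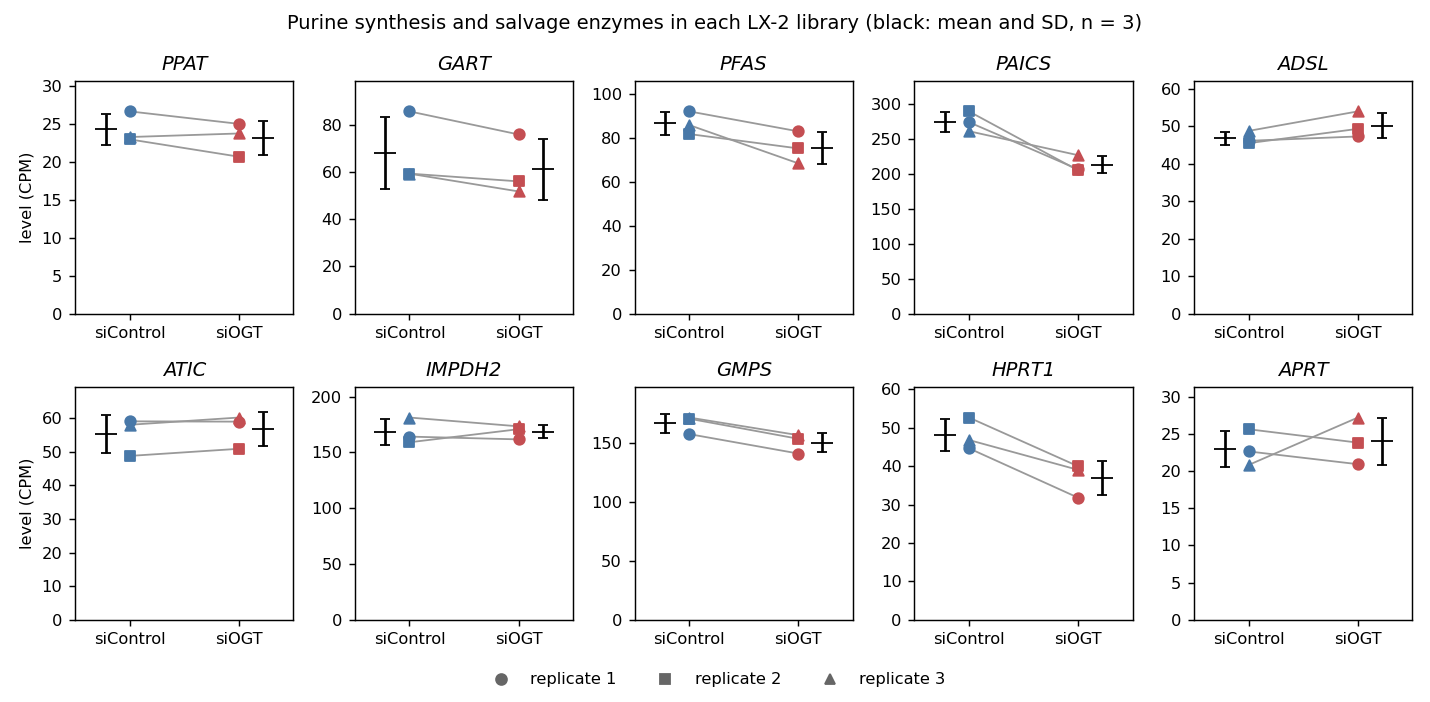
Level in CPM (vertical axes, each from 0) of the 10 enzyme genes in the 3 siControl (blue) and 3 siOGT (red) libraries, with grey lines joining libraries of the same replicate number and black bars showing the mean and SD. PAICS, HPRT1 and GMPS have all siOGT points below all siControl points, whereas the points of the other 7 genes overlap between the groups.

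De novo synthesis starts with PPAT, the amidotransferase that commits PRPP to the pathway. PPAT (chr4:56393362-56435615, minus strand, hg38) was at 26.7, 23.0 and 23.3 CPM in siControl replicates 1, 2 and 3 and at 25.0, 20.7 and 23.8 CPM in siOGT. The groups overlapped, and replicate 1 was the highest library of each group. The log2 fold change was -0.07 (95% confidence interval -0.24 to 0.10, SE 0.080), and PPAT was not called.

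GART carries out several early steps of the chain, among them a formyl transfer that uses folate. GART (chr21:33503931-33543491, minus strand) was at 85.6, 59.3 and 59.3 CPM in siControl and at 75.9, 56.0 and 51.7 CPM in siOGT. Replicate 1 stood above the others in both groups, so the groups overlapped although siOGT was the lower library in each of the 3 pairs. The log2 fold change was -0.15 (SE 0.066, interval -0.29 to -0.01), which was not called.

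PFAS adds an amino group from glutamine, the step after the formyl transfer by GART. PFAS (chr17:8247618-8270491, plus strand) was at 92.0, 81.7 and 85.8 CPM in siControl and at 82.9, 75.2 and 68.4 CPM in siOGT. The siOGT value was lower in each pair, with log2 ratios of -0.15, -0.12 and -0.33, yet the highest siOGT library lay above the lowest siControl library. The fitted log2 fold change was -0.20 (SE 0.067, interval -0.34 to -0.06). PFAS was called lower, and this call was lost with DESeq2, with scaling by library totals, without replicate 1 and without replicate 3, where the log2 fold change was -0.20, -0.18, -0.23 and -0.14, as well as without the replicate block.

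PAICS adds a carboxyl group and then aspartate to the imidazole intermediate, joining a carboxylase and a ligase activity in 1 protein. PAICS (chr4:56435741-56464578, plus strand) was at 273.4, 288.9 and 260.5 CPM in siControl and at 206.1, 204.6 and 226.3 CPM in siOGT. The groups did not overlap, and siOGT was lower in the 3 pairs by log2 ratios of -0.41, -0.50 and -0.20. The mean fell by 22.6%, from 274.3 ± 14.2 to 212.3 ± 12.1 CPM (SD, n = 3 each), with a log2 fold change of -0.37 (SE 0.070, interval -0.52 to -0.22). PAICS was the member with the highest count, at 5507 to 7353 reads per library.

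The ratio of PAICS to PPAT counts within a library, set by the 2 genes that lie head to head, was 10.3, 12.6 and 11.2 in siControl and 8.24, 9.89 and 9.52 in siOGT. The siOGT ratio was the lower in each pair. It does not depend on how the libraries were scaled.

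ADSL, the lyase that acts both late in the chain and again in the AMP branch, and ATIC, which performs the last formyl transfer and closes the ring to give IMP, were not called. ADSL (chr22:40346461-40390463, plus strand) was at 46.1, 45.5 and 48.8 CPM in siControl and at 47.3, 49.3 and 54.0 CPM in siOGT. ADSL was the only member with the higher value in siOGT in all 3 pairs, and its log2 fold change was 0.10 (SE 0.068, interval -0.04 to 0.24). ATIC (chr2:215311956-215349773, plus strand) was at 59.0, 48.7 and 58.0 CPM in siControl and at 58.9, 50.8 and 60.1 CPM in siOGT. In ATIC the libraries of replicate 2 were the low ones in both groups, and the log2 fold change was 0.037 (SE 0.067, interval -0.10 to 0.18).

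Added up, the 6 de novo members reached 583, 547 and 536 CPM in siControl and 496, 457 and 484 CPM in siOGT. Every siOGT sum lay below every siControl sum, an order that 11.8% of single genes tested also showed. Of the 6 only PAICS had its own groups apart, and PPAT, GART, PFAS, ADSL and ATIC each overlapped. PAICS alone took the greater part of the difference, since its mean differed by 61.95 CPM and the mean of the sum by 76.2 CPM.

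In the GMP branch, IMPDH2 oxidises IMP to xanthosine monophosphate, the step that sets the rate of GMP synthesis. IMPDH2 (chr3:49024325-49029447, minus strand) was at 164.2, 159.1 and 181.3 CPM in siControl and at 161.7, 170.8 and 173.4 CPM in siOGT. The groups overlapped fully and the log2 fold change was 0.0053 (SE 0.065, interval -0.13 to 0.14). Leaving out replicate 2 turned its direction, to -0.0454.

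GMPS then aminates xanthosine monophosphate to GMP. GMPS (chr3:155870650-155944020, plus strand) was at 157.7, 170.8 and 171.8 CPM in siControl and at 141.2, 153.7 and 156.8 CPM in siOGT. All siOGT libraries lay below all siControl libraries, with log2 ratios of -0.16, -0.15 and -0.13 in the pairs. The log2 fold change was -0.15 (SE 0.063, interval -0.28 to -0.015), and GMPS was not called despite this separation.

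The other IMP dehydrogenase, IMPDH1, is no member and was lower in siOGT, at 154, 130 and 140 CPM in siControl and 132, 101 and 113 CPM in siOGT. Its log2 fold change was -0.30 (SE 0.064, edgeR adjusted p = 0.00276). The ratio of IMPDH2 to IMPDH1 per transcript length was 1.69, 1.94 and 2.04 in siControl and 1.94, 2.66 and 2.42 in siOGT, higher in siOGT in each pair while the groups just overlapped.

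HPRT1 and APRT are the 2 phosphoribosyltransferases of salvage, the former recycling hypoxanthine and guanine and the latter adenine. HPRT1 (chrX:134460165-134520513, plus strand) was at 44.7, 52.7 and 46.8 CPM in siControl and at 31.8, 40.0 and 39.0 CPM in siOGT. Every siOGT library lay below every siControl library, and the pairs gave log2 ratios of -0.49, -0.40 and -0.26. The means were 48.1 ± 4.15 and 36.9 ± 4.48 CPM (SD, n = 3 each). The fitted log2 fold change was -0.38 (SE 0.073, interval -0.53 to -0.23), a fall of 23.3%.

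APRT (chr16:88809339-88811937, minus strand) was at 22.6, 25.6 and 20.8 CPM in siControl and at 20.9, 23.8 and 27.2 CPM in siOGT. Replicate 3 went the other way from the rest, with a log2 ratio of 0.38 against -0.11 and -0.10 in replicates 1 and 2. The log2 fold change was 0.057 (SE 0.096, interval -0.15 to 0.26), and it turned to -0.12 without replicate 3. Per transcript length, HPRT1 stood at 1.32, 1.37 and 1.501 times the APRT level in siControl and at 1.01, 1.12 and 0.959 times in siOGT. The ranges of the 2 groups were apart. HPRT1 by itself was apart in the same direction, as were 11.8% of single genes tested, and APRT overlapped. How often ratios of 2 genes part in this way was not measured.

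HPRT1 is also used as a reference gene in RT-qPCR, where it is taken to be stable. Of 12 other genes commonly used in that way, PGK1, TFRC and PPIA were lower in siOGT and TBP was higher, and 8 were not called. TBP rose by 0.51 on the log2 scale (32.4 ± 1.17 to 46.4 ± 4.69 CPM, adjusted p = 0.000137) and PGK1 fell by 0.39 (272 ± 12.3 to 208 ± 10.3 CPM, adjusted p = 0.000331), both by edgeR. The HPRT1 difference of -0.38 was thus close in size to that of PGK1 and opposite in direction to that of TBP. The members' median of -0.11 was near the median of -0.097 over these 12 genes.

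Levels of the members were compared per kilobase of the canonical GENCODE transcript, which may not be the transcript length behind the counts. In siControl, IMPDH2 was the most abundant at 101.9 ± 7.04 CPM per kb (SD, n = 3), followed by PAICS at 43.05 ± 2.23 and HPRT1 at 34.5 ± 2.97. These 3 were apart from each other and from all below. ATIC at 28.004 ± 2.87, APRT at 24.7 ± 2.60, GART at 20.5 ± 4.59 and GMPS at 19.3 ± 0.911 CPM per kb followed, and each neighbour in that order overlapped the next. PFAS at 16.1 ± 0.967, ADSL at 10.7 ± 0.398 and PPAT at 6.60 ± 0.556 CPM per kb were apart from their neighbours. PPAT, the committing enzyme, was thus the least abundant of the 10 mRNAs by this measure, and PAICS exceeded it 5.93 to 7.26 times in siControl and 4.76 to 5.71 times in siOGT.

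**Figure D2:**
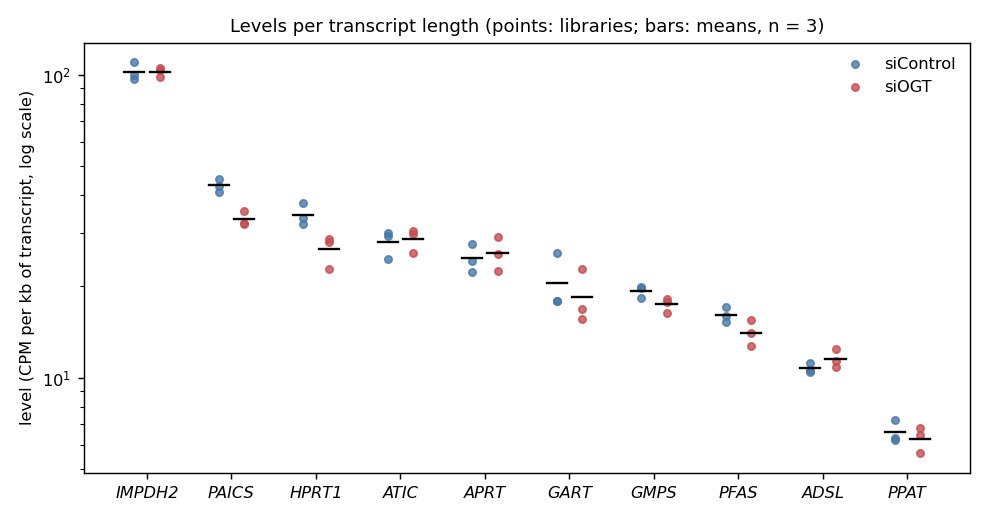
Level per transcript length (CPM per kb, log axis) of the 10 enzyme genes in siControl (blue) and siOGT (red) libraries, ordered by the siControl mean, with bars for means of 3 libraries. IMPDH2 lies near 100 and PPAT below 10 in both groups, and the siOGT points of PAICS, HPRT1 and GMPS all lie below their siControl points.

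The members differed in how their values were spread. The sum of squares of log2 CPM over the 6 libraries was divided between group, replicate number and the rest. The group took 89.4% of it in PAICS, 69.7% in HPRT1, 59.4% in GMPS, 52.7% in PFAS and 37.5% in ADSL. The median was 27.1% over the 12373 genes that averaged 1 CPM or more. Below that median were PPAT, GART, APRT, ATIC and IMPDH2, at 10.1%, 8.73%, 3.81%, 2.49% and 0.182%. The replicate number took 96.1% in ATIC, 90.3% in GART, 78.9% in PPAT, 69.7% in IMPDH2 and 54.2% in ADSL, against a median of 48.6%. In GMPS, PFAS, APRT and HPRT1 it took 40.2%, 36.2%, 29.1% and 26.2%, below that median. In APRT 67.1% was left to neither. PAICS was at the other end from ATIC and GART, with 0.7% taken by the replicate number.

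For GART the means of the replicates were 80.7, 57.6 and 55.5 CPM, a wider range than the distance between its group means of 68.1 and 61.2 CPM. For ATIC they were 58.9, 49.8 and 59.0 CPM. GART and ATIC both move formyl groups from folate, and they differed in which replicate stood out, replicate 1 being high in GART and replicate 2 low in ATIC.

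**Figure D3:**
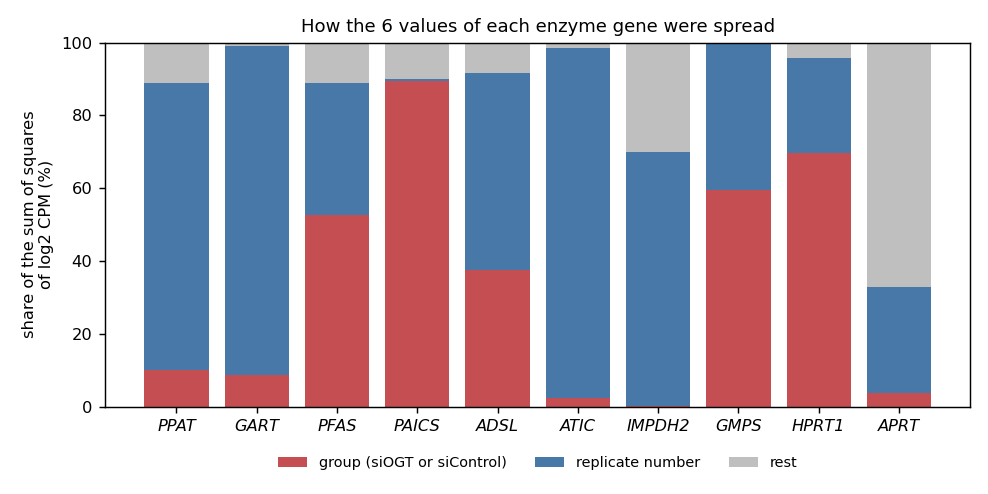
Share of the sum of squares of log2 CPM over 6 libraries (vertical axis, percent) taken by group, by replicate number and by the rest for each enzyme gene. The group takes most in PAICS (89.4%) and HPRT1 (69.7%), and the replicate number takes most in ATIC (96.1%) and GART (90.3%).

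Of 34 further purine genes, listed by role, 33 had a row in the files and 30 were tested. In siOGT, 6 of them were lower and 2 higher, with a median log2 fold change of -0.073. The shares over all genes tested, for this and the lists that follow, were 12.7% lower and 12.7% higher. Without the replicate block, edgeR called 0 of the 30 and DESeq2 called 1. The supply of PRPP, which feeds both the de novo chain and the 2 salvage members, showed PRPS2 lower at -0.39 (45.7, 56.5 and 53.4 CPM in siControl, 33.9, 43.5 and 41.8 CPM in siOGT, adjusted p = 0.000566). The other ubiquitous PRPP synthetase, PRPS1, was lower at -0.23 (92.3 ± 3.17 to 78.8 ± 3.07 CPM, SD, n = 3 each, edgeR adjusted p = 0.0171), a call lost without replicate 1, where the value was -0.18 and the adjusted p 0.236. Their associated proteins PRPSAP1 and PRPSAP2 were not called.

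In the AMP branch, ADSS2, the synthase that works just before ADSL, was at 23.6 ± 1.60 and 25.4 ± 1.44 CPM and was not called. None of the 4 other salvage enzymes, the kinases ADK, DCK and DGUOK and the phosphorylase MTAP, was called, with log2 fold changes between -0.08 and 0.15. Among the 6 salvage enzymes listed HPRT1 was the only called gene, where 12.7% of all genes tested were called lower and 12.7% higher.

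Of 13 tested enzymes that interconvert purine nucleotides, 2 were lower. GMPR, which returns GMP to IMP, was lower at -0.36 (11.8 ± 1.51 to 9.13 ± 0.795 CPM, adjusted p = 0.0310), and AMPD2, which returns AMP to IMP, at -0.24 (51.8 ± 0.373 to 44.1 ± 2.44 CPM, adjusted p = 0.0195). Both calls were lost with DESeq2 and without replicate 1, with adjusted p-values of 0.1397 and 0.277 for GMPR and 0.06273 and 0.218 for AMPD2, and that of GMPR also without replicate 2, at 0.0945.

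Breakdown enzymes moved in both directions. NT5E, the cell surface nucleotidase that releases adenosine from AMP, rose by 0.35 on the log2 scale (538, 466 and 533 CPM to 686, 618 and 646 CPM, adjusted p = 0.00105). PNP, the phosphorylase that frees the bases HPRT1 uses, rose by 0.19 (79.3 ± 12.5 to 90.6 ± 17.7 CPM, adjusted p = 0.0490), and ADA, which deaminates adenosine, was lower at -0.41 (6.90 ± 0.906 to 5.18 ± 0.580 CPM, adjusted p = 0.0360). The PNP call was lost with DESeq2, with median-ratio scaling, without replicate 1 and without replicate 3, at adjusted p-values of 0.1129, 0.0547, 0.264 and 0.155. The ADA call was lost with DESeq2, without replicate 2 and without replicate 3, at 0.179, 0.168 and 0.128.

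**Figure D4:**
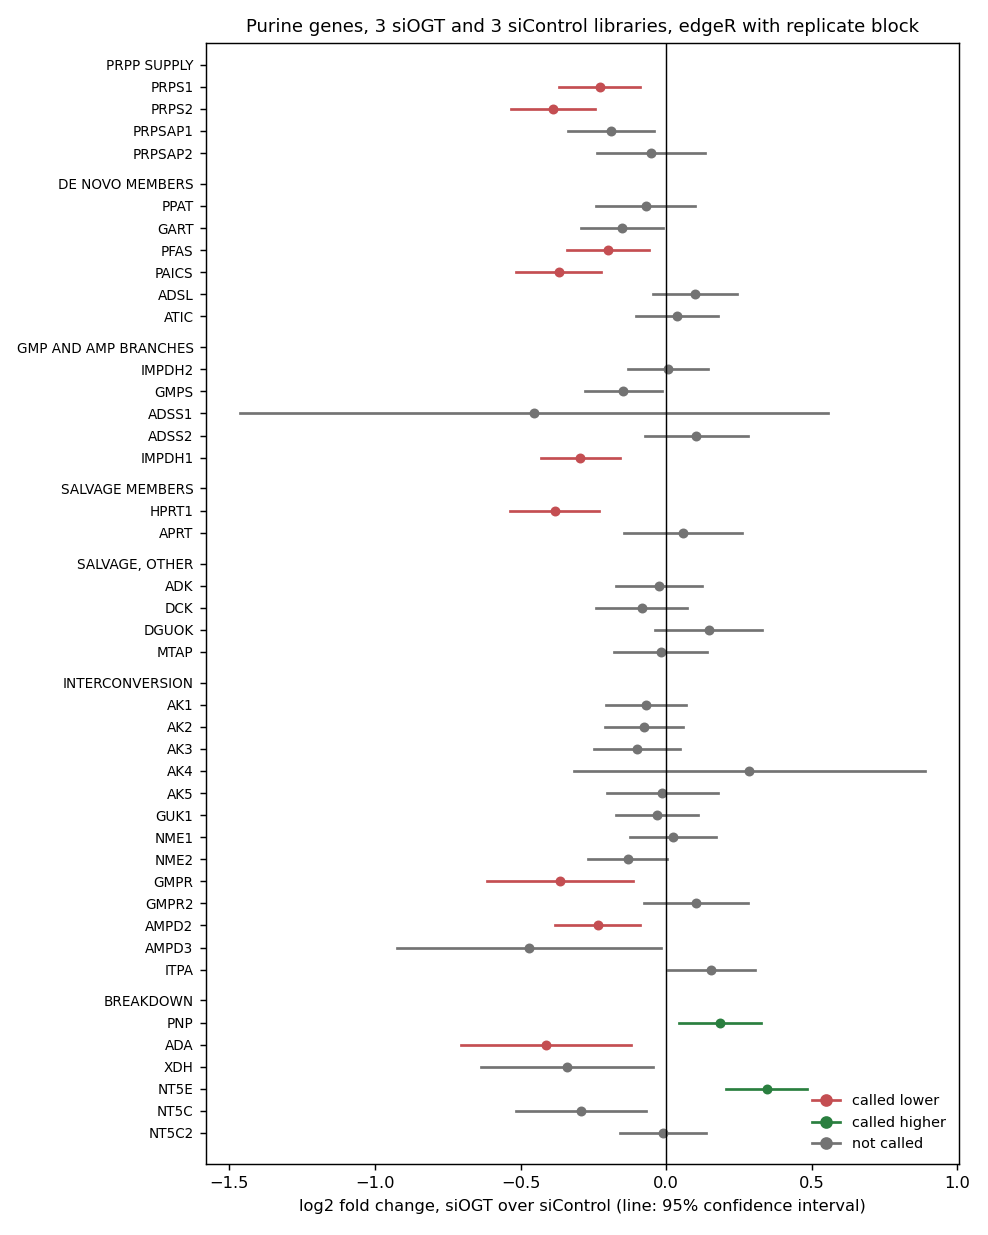
Log2 fold change of siOGT over siControl (horizontal axis) with its 95% confidence interval for the 10 enzyme genes and 30 further purine genes, grouped by role, with genes called lower in red, called higher in green and not called in grey. PAICS, PFAS and HPRT1 are the red members, beside PRPS1, PRPS2, IMPDH1, GMPR, AMPD2 and ADA among the other genes, and NT5E and PNP are green.

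Formyl groups for GART and ATIC come from folate metabolism. Of 10 folate enzymes listed, 5 were lower, and the median log2 fold change of the 10 was -0.32. MTHFD1, which makes formyl-tetrahydrofolate in the cytosol, was at 329, 293 and 321 CPM in siControl and at 261, 266 and 247 CPM in siOGT, with a log2 fold change of -0.29 (SE 0.068, adjusted p = 0.00511), a call lost without replicate 1 (adjusted p = 0.0999). MTHFD2, its partner in mitochondria, was lower at -0.42 (adjusted p = 0.000569), SHMT1, which takes the carbon from serine, at -0.37 (adjusted p = 0.000856) and ALDH1L2, which oxidises formyl-tetrahydrofolate, at -0.57 (adjusted p = 0.00148). SHMT2, the mitochondrial counterpart of SHMT1, was at 226 ± 11.9 and 222 ± 23.3 CPM and was not called. GART and ATIC, which use formyl groups, were not called. The 5 lower folate genes included ALDH1L2, which uses up formyl-tetrahydrofolate, so they are not all makers of formyl groups.

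Over the 32 genes of these neighbouring pathways, from folate to regulators, edgeR with the block called 12 lower and 1 higher. Without the block edgeR called 1 lower and DESeq2 called 8 lower and 1 higher. The pyrimidine pathway had 4 of 13 genes lower. These were TYMS, TK1 and DTYMK, which make thymidine nucleotides for DNA, at -0.63, -0.38 and -0.40 (adjusted p = 5.05e-06, 0.000424 and 0.000904), and CTPS1 at -0.19 (adjusted p = 0.0422). The CTPS1 call was lost with DESeq2, with library totals and without any 1 of the replicates, where the adjusted p ranged from 0.0691 to 0.173. CAD, DHODH and UMPS, which build the pyrimidine ring as the de novo members build the purine ring, were not called.

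Ribonucleotide reductase, which turns ribonucleotides of both kinds into deoxyribonucleotides, was lower in RRM2 at -0.62 (152 ± 13.4 to 98.6 ± 4.41 CPM, adjusted p = 4.31e-06) and in RRM1 at -0.18 (134 ± 5.70 to 118 ± 1.65 CPM, adjusted p = 0.0420). The RRM1 call was lost with DESeq2, with library totals, without replicate 1 and without replicate 2, at adjusted p-values of 0.0612, 0.0689, 0.298 and 0.0968. Of the 3 transporters of nucleosides and bases listed, SLC29A1 was lower at -0.47 (84.3 ± 9.59 to 60.5 ± 2.19 CPM, adjusted p = 0.000245).

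Among the regulators, ATF4, the amino acid response factor, was higher by 0.32 (268 ± 12.3 to 337 ± 34.2 CPM, adjusted p = 0.00171). MYC, which can read the E-box that PPAT and ATIC carry, was at 102 ± 5.15 CPM in siControl and 113 ± 5.997 CPM in siOGT and was not called (log2 fold change 0.16, adjusted p = 0.0799), except with library totals, where the adjusted p was 0.0449. MAX was not called. PPAT and ATIC themselves had log2 fold changes of -0.07 and 0.037. The E-box of PPAT also lay in another RefSeq window of PAICS, a gene called lower at -0.37. A link of MYC to these genes was not tested.

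Proliferation markers were set beside these genes. Of 12 listed, 10 were lower in siOGT, with a median log2 fold change of -0.31, and MCM2 and CCNA2 were not called. MCM5, a replication helicase subunit, was at 254 ± 13.2 and 168 ± 23.1 CPM (log2 fold change -0.61, adjusted p = 1.029e-05), and MKI67, a marker of cycling cells, at 963 ± 60.8 and 746 ± 61.1 CPM (-0.37, adjusted p = 0.00167). The members' median of -0.11 lay between the proliferation median and the median of all genes. The log2 fold changes of HPRT1 and PAICS were close to that of MKI67, and those of the other members were smaller in size. The part of the proliferation markers in the values of the members was not tested.

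**Figure D5:**
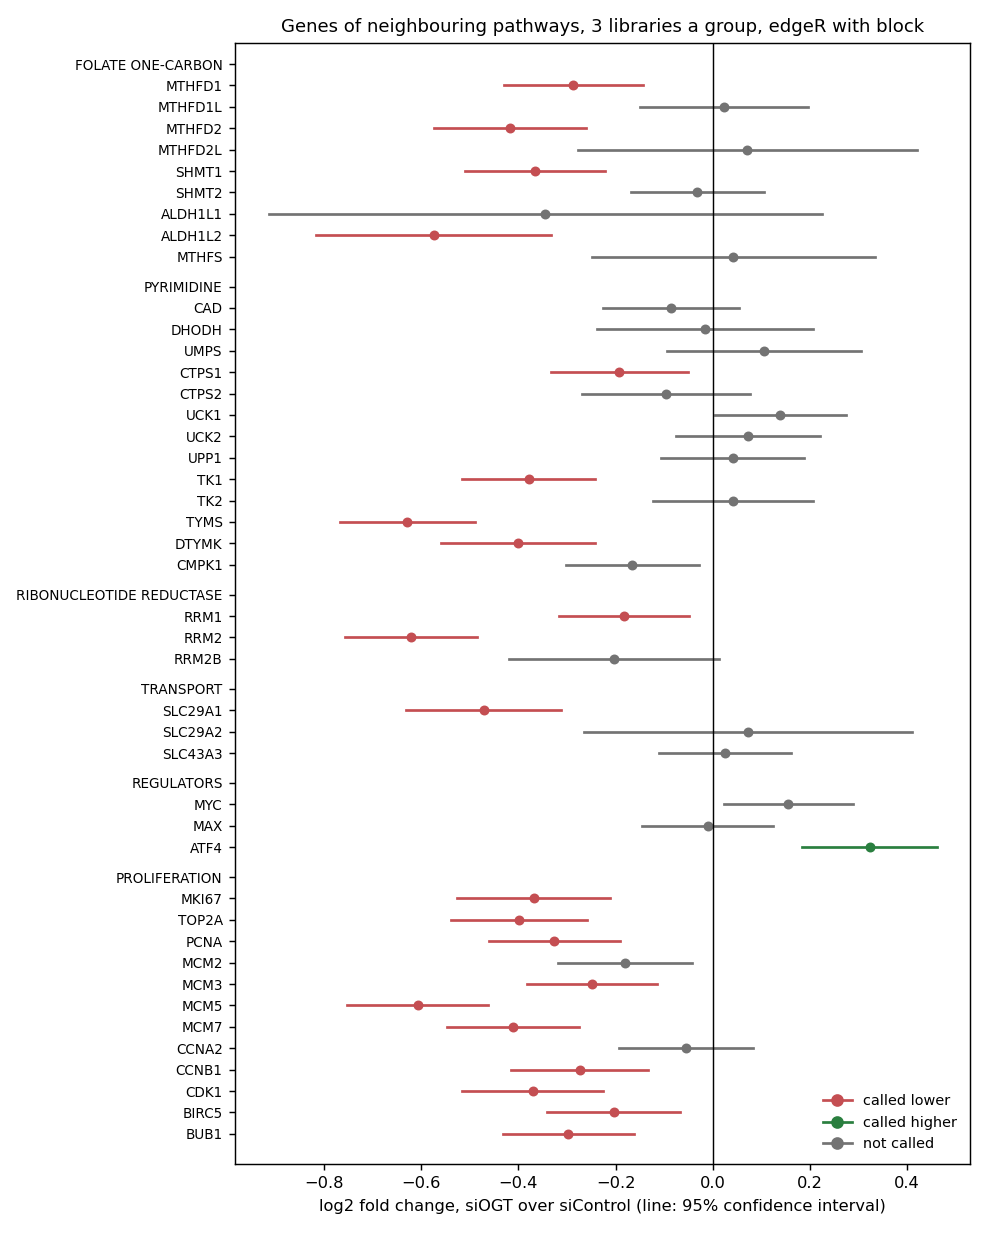
Log2 fold change of siOGT over siControl (horizontal axis) with its 95% confidence interval for genes of folate, pyrimidine, ribonucleotide reductase, transport, regulator and proliferation lists, with genes called lower in red, called higher in green and not called in grey. The red points include MTHFD1, MTHFD2, SHMT1 and ALDH1L2 of the folate genes and 10 of 12 proliferation genes, and ATF4 is the green point.

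The expected counts of 6 members, HPRT1, APRT, PPAT, GART, ATIC and IMPDH2, were exactly whole as deposited in all 6 libraries. Those of PFAS, PAICS and ADSL were not whole in 1 library each and those of GMPS in 4. How many reads were divided between genes cannot be read from these totals. In GENCODE 44, exons of IMPDH2 and of ADSL shared 32.8% and 11.1% of their bases with another protein-coding gene model on the same strand, so these 2 counts depend on the gene models used. Antisense transcripts overlapped 2.22% of the exon bases of PPAT and 2.58% of those of IMPDH2, and the counting used strand.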

How the data were processed

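RNA of 6 LX-2 libraries, 3 biological replicates of each group per the labels, was enriched by oligo-dT, sequenced paired-end, aligned to hg38 with Bowtie2 2.3.5.1 and counted by strand with RSEM 1.3.1. The values deposited by the authors are expected counts per gene, not normalized, in which reads matching several genes are divided. The authors' own comparison table, made with DESeq2 1.36.0 (mean, fold change, p-value), was not used.

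Expected counts were rounded, genes with a total below 10 removed and libraries scaled by TMM. The two-sided quasi-likelihood test of edgeR 4.0.16 (R 4.3.3) was fitted to all 14853 genes. The design held the replicate number as a block, and Benjamini-Hochberg adjustment was applied over all of them. Log2 ratios within pairs used a prior count of 2. SE and 95% intervals were derived from the F statistic. DESeq2 1.42.0, fits without the block, other scalings, other filters and leaving out each replicate were alternatives. The script was tested on simulated data.

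The study's methods pair samples by replicate. Deviations from the group means correlated by 0.69, 0.53 and 0.33 between same-numbered libraries over 12373 genes. Within each group, all libraries differed by more than counting noise (chi-square per degree of freedom at least 19.4).

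The members and gene lists were chosen with earlier results of these data known. All members are named, and other listed genes by whether they were called. Some genes that count in their lists are not reported here by name. Coordinates are from GENCODE 44 on hg38, and promoters from RefSeq GRCh38.p14. The precision of a count is limited by counting error and by 3 libraries a group.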

Additional observations from a re-analysis of the deposited data

How the results depend on the processing

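The number of genes called was 3766, and it was 2415 with DESeq2 and 849 and 130 in DESeq2 and edgeR without the replicate block. Leaving out a replicate gave 1803 (replicate 1) to 3439. Of the 10 members 3 were called, against 0 in edgeR and 1, PAICS, in DESeq2 without the replicate block, and 2 to 3 with a replicate left out. The other purine genes called lower numbered 6, against 3 with DESeq2, 0 in both fits without the block and 3 to 6 with a replicate left out. Those called higher numbered 2, against 1 with DESeq2, 1 with median-ratio scaling, 0 in edgeR and 1 in DESeq2 without the block, and 1 to 2 with a replicate left out. The 12 neighbouring pathway genes called lower became 1, and the 1 called higher became 0, in edgeR without the block (8 and 1 in DESeq2), and with library totals 2 were called higher. The 10 proliferation markers became 1 in edgeR and 6 in DESeq2 without the block, and 6 to 10 with a replicate left out. The cause of these differences was not tested. Of 100 alternative values of the members' log2 fold changes, 89 kept direction and call, 9 kept direction but lost the call, and 2 turned, APRT to -0.12 without replicate 3 and IMPDH2 to -0.0454 without replicate 2. All lost calls were of PFAS, HPRT1 and PAICS, the 3 called members. For the other 7, keeping the call meant staying not called. With a replicate left out, APRT ranged from -0.12 to 0.14 and IMPDH2 from -0.0454 to 0.0342. OGT kept its direction and call under all alternatives. With 3 libraries a group, the intervals of PPAT, ADSL, ATIC, IMPDH2 and APRT included 0.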
